A study of Mus musculus with 12 samples.

Results

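Cells differentiated with BMP4 were compared with cells differentiated with LIF plus noggin on 8 of the 12 Illumina mouse bead arrays of the series, 4 arrays per treatment, chosen by their titles. The starting cells were neural stem cells taken at postnatal day 1 from CD1 mice (subventricular zone) and grown as neurospheres in EGF. The BMP4 group received recombinant human BMP4 at 20 ng/ml with EGF at 1 ng/ml. The LIF_NOG group received LIF at 20 ng/ml and noggin at 250 ng/ml with the same EGF. Both were harvested on day 7, after their cytokines had been renewed at a lower concentration on day 3. Cells of both groups had been infected with a GFAP-GFP retrovirus and sorted for GFP before differentiation, so the Gfap promoter drove the reporter used for the sort. The third group, Neurosphere, held sorted neurosphere cells in EGF at 20 ng/ml that carried a control GFP retrovirus, and 3 of its 4 arrays serve below as a starting level without a test. Whether a group's 4 samples were independent cultures or animals is not labelled, so p-values cover the spread among these samples only, which can be technical.

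BMP4 is a ligand of the TGF-beta superfamily that binds paired type I and type II serine kinase receptors and acts through Smad1, Smad5 and Smad8 with Smad4. Its best known direct targets are the Id genes, whose proteins hold basic helix-loop-helix factors inactive. LIF binds its receptor together with gp130 and acts through Jak kinases and Stat3, and noggin is a secreted protein that traps BMP ligands, so the second group combined a gp130 signal with a block of BMP. Both signals are known to turn neural stem cells into cells that express Gfap, the intermediate filament protein of astrocytes.

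Levels are given as log2 signal after background correction and quantile normalization, and each fold change is BMP4 minus LIF_NOG on that scale, ± the SE of the limma fit. A gene said to rise or fall was higher or lower in BMP4 than in LIF_NOG. The words do not describe a change from the Neurosphere level. Of 10386 genes detected on at least 4 of the 8 arrays, 2017 (19.4%) were called higher in BMP4 and 2151 (20.7%) lower, 40.1% in all, at a Benjamini-Hochberg adjusted p under 0.05 by limma. At least 2-fold differences were called for 977 genes (9.41%) that were higher and 817 (7.87%) that were lower, and 102 genes rose and 64 fell by more than 8-fold. The groups did not overlap for 3953 genes (38.1%). Principal component 1, with 73.45% of the variance, separated the groups, with scores of 44.9 to 50.9 in BMP4 and -53.7 to -44.3 in LIF_NOG. The share of probes detected was 40.2% ± 1.26 in BMP4 and 40.2% ± 0.946 in LIF_NOG (SD, n = 4 each), a difference that did not pass an exact two-sided permutation test (p = 0.971, where 0.0286 is the smallest possible).

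LIF_NOG 2 stood apart on the second component (11.4% of the variance), with a score of 43.2 against at most 6.41 on the other arrays, and BMP4 4 on the third, at -31.7. Without LIF_NOG 2, 20.7% of genes were called higher and 23.4% lower. In the authors' processed table the columns of BMP4 1 to 4 and LIF_NOG 4 stand in 1 row order. Those of LIF_NOG 1 to 3 and of the Neurosphere arrays used stand in another. What that order marks is not given in the sources used here. Among the 5 arrays of the BMP4 order alone, 10.7% of genes were called higher and 11.4% lower, and with the order as a block 9.64% and 8.51%. Both fits rest on LIF_NOG 4 for the level of LIF_NOG and assume that it varies like the other arrays. Where the row order as a block moved a count below by more than 1.5 times, its value is given beside it, with the same percentages as background, and the part that the row order plays was not tested.

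**Figure D1:**
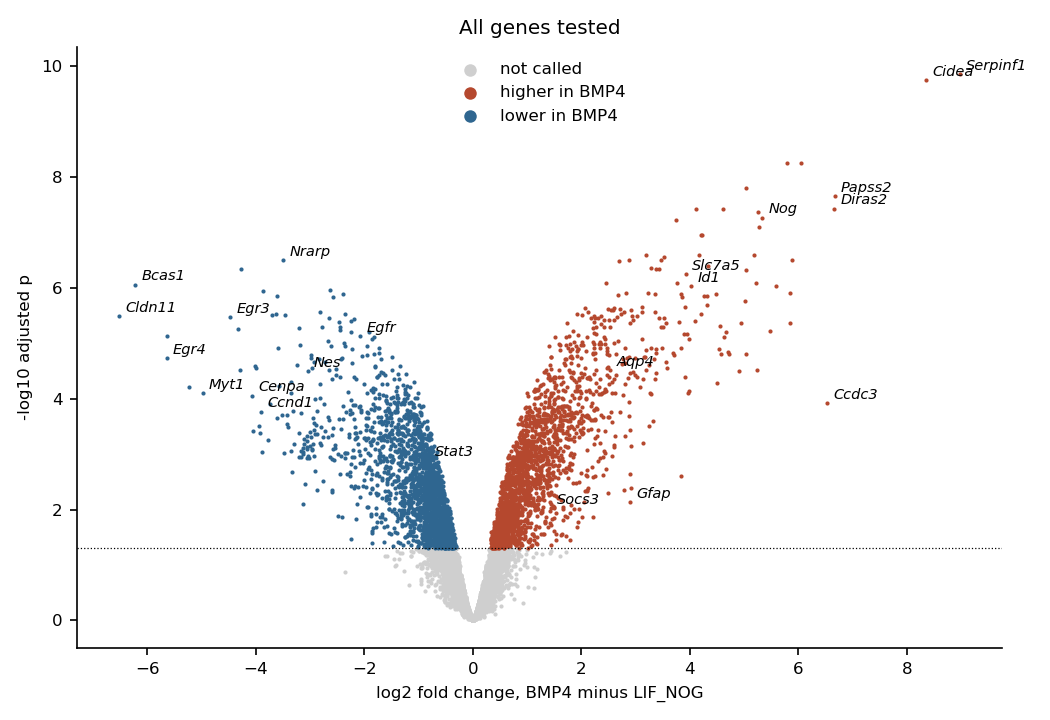
Log2 fold change (x axis, BMP4 minus LIF_NOG) against -log10 of the adjusted p (y axis) for the 10386 genes tested, coloured by call, with the dotted line at 0.05. Serpinf1 and Cidea lie furthest to the right and Cldn11 and Bcas1 furthest to the left, while Gfap and Socs3 lie low for the size of their change.

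The BMP response itself was the first question. All 4 Id genes were higher in BMP4. Id1 stood at 11.16, 11.30, 11.26 and 10.94 in BMP4, against 7.55, 6.67, 7.42 and 6.90 in LIF_NOG. The groups lay more than 3 log2 units apart, a change of 4.03 ± 0.20 (limma, adjusted p = 9.27e-07), and the Neurosphere arrays stood between 7.67 and 8.18, above every LIF_NOG array. Id2 rose by 3.89 ± 0.27, Id4 by 2.43 ± 0.33 and Id3 by 2.26 ± 0.18. A second probe of Id1 gave a smaller change of 1.05, called in the same direction. Of 17 measured BMP-SMAD target genes, 11 were called higher and 4 lower, with a median change of 1.04 against 0.0033 over all genes tested, and with the row order as a block 8 and 2. Besides the Id genes the higher ones included Atoh8, a basic helix-loop-helix factor detected on no LIF_NOG array and at least 4.07-fold higher, and the Notch effector Hey1 (1.04 ± 0.27). The homeobox genes Msx1, detected in BMP4 alone and at least 1.28-fold higher, and Msx2 (0.73 ± 0.19) were called too, and both calls were lost with the row order as a block, as were those of Hey1, Hes1 and Tgif1 (adjusted p between 0.069 and 0.282). The 4 lower ones, Zeb2, Zeb1, Hes1 and Tgif1, are transcription factor genes that the list holds as reported targets, and fell by between 0.90 and 1.10. The call of Tgif1 was lost when its 3 probes were averaged (-0.40, adjusted p = 0.113, over alternatives up to 0.282).

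Genes for inhibitors of BMP were higher as well. Noggin itself, Nog, read 9.80, 10.09, 9.33 and 9.97 in BMP4. In LIF_NOG it read between 4.29 and 4.59 and was not well above background on any array. Its transcript was at least 30.6-fold higher in BMP4 (limma, adjusted p = 5.36e-08), and it was likewise below background on the 3 Neurosphere arrays, at 4.46 to 4.66. The noggin added to the LIF_NOG medium was protein, which these probes do not read. Of 13 measured antagonist and feedback genes, 9 were called higher and 1, Tgif1, lower, with a median of 1.46 (8 and 0 with the row order as a block). They included the follistatin-like Fstl1 (2.15 ± 0.27), the secreted antagonists Nbl1 (1.86 ± 0.27), Bmper (1.37 ± 0.17) and Grem1 (detected in BMP4 alone), the membrane protein Crim1 (1.46 ± 0.24) and the Smad co-repressors Ski (1.71 ± 0.26) and Skil (1.52 ± 0.14). A second probe of Crim1 was not called (0.19). These counts share Nog, Grem1, Bmper and Tgif1 with the list of targets. The inhibitory Smad7 is on the array but did not pass the detection filter, and Smad6 is not analysed here.

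Receptors and Smads moved both ways. Of 19 measured genes 6 were higher (31.6%, against 19.4% of all genes) and 8 lower (42.1%, against 20.7%), with a median of -0.44. With the row order as a block 4 were higher and 4 lower. Of the type I receptors, Bmpr1a and Acvr1 were higher and Bmpr1b was not called. Bmpr1a read 10.51, 10.99, 10.92 and 11.39 in BMP4, against 9.23, 9.13, 9.08 and 8.96 in LIF_NOG. That is a rise of 1.86 ± 0.18 (limma, adjusted p = 4.66e-05) with no overlap, and Acvr1 rose by 1.19 ± 0.16. Both receptors of TGF-beta fell, Tgfbr2 by 1.64 ± 0.28 and Tgfbr1 by 1.39 ± 0.16, as did the activin receptor Acvr2b (-1.98 ± 0.37) and the signal transducer Smad1 (-1.19 ± 0.15), of which 1 of 2 further probes was not called (0.11, adjusted p = 0.541). The call of Tgfbr2 was lost with the row order as a block (adjusted p = 0.0895).

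The other arm was that of gp130 and Stat3. Stat3 itself read 11.28, 11.27, 11.25 and 11.40 in BMP4, against 12.12, 11.81, 12.20 and 12.35 in LIF_NOG, and was at 9.93 to 10.44 in Neurosphere. The fall of 0.82 ± 0.14 (limma, adjusted p = 0.00128) came with no overlap between groups. Of 14 measured receptor and Jak-Stat genes, 3 were called higher (21.4%, against 19.4% of all genes) and 4 lower (28.6%, against 20.7%). The kinase Jak2 (-1.14 ± 0.16), the oncostatin M receptor Osmr (-1.28 ± 0.44) and the interleukin 6 receptor Il6ra (detected in LIF_NOG alone, at least 2.67-fold lower) were lower beside Stat3. The kinase Jak1 was higher by 0.84 ± 0.29. With the row order as a block 0 of the 14 were higher and 2 lower. The calls of Osmr, Il6ra and Jak1 did not hold under several alternatives, with adjusted p up to 0.282, 0.326 and 0.113, and second probes of Jak1 and Jak2 read 0.18 and 0.09, neither called.

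Of 27 measured targets of gp130 and Stat3, 7 were called higher in BMP4 (25.9%, against 19.4% of all genes) and 8 lower (29.6%, against 20.7%), with a median of -0.07. Socs3, the feedback inhibitor that Stat3 induces, read 11.40, 12.07, 11.89 and 12.41 in BMP4. In LIF_NOG it read 10.20, 9.73, 10.55 and 11.51, so that LIF_NOG 4 lay within the BMP4 range, and Neurosphere read 5.86 to 6.63. The change of 1.44 ± 0.35 was called (limma, adjusted p = 0.0093), but against LIF_NOG 4 alone it was 0.43 (adjusted p = 0.454). The kinase gene Pim3 (1.79 ± 0.14) and Vegfa (2.24 ± 0.43) rose too. The protease inhibitor Timp1 was lower in BMP4 than in LIF_NOG by 2.79 ± 0.42, and the transcription factor Klf4 by 2.01 ± 0.20. The BMP4 mean of Klf4, 6.53, stood above its Neurosphere mean of 5.31. For Timp1 the means were 7.73 and 7.33, but only BMP4 4, at 9.01, stood above the Neurosphere range of 7.06 to 7.57. The other BMP4 arrays read 7.29 to 7.32. The cyclin Ccnd1 was lower as well (-3.91 ± 0.46). Cebpd fell by 1.41 ± 0.31 by its brighter probe and rose by 0.70 by the other (adjusted p = 0.0109), so its direction is not settled. Without LIF_NOG 2 the count was 8 higher and 10 lower, and with the row order as a block 3 and 7.

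Socs3 is the example for the sequence at which Stat proteins are known to bind, TTCNNNGAA. RefSeq promoters of 300 bases (250 before the start, 50 after) were searched on both strands for it in GRCm38.p6. It was present for 7 of the 23 genes of the list that have an entry (30.4%), against 8.36% of the 8466 tested genes with an entry and 9.55% of all 27025 genes of that table. The window of Socs3 from -200 to -41 is shown with its match in capitals (chr11:117969407-117969566, minus strand, 5′ to 3′); the match lies at -154 to -146.
Socs3: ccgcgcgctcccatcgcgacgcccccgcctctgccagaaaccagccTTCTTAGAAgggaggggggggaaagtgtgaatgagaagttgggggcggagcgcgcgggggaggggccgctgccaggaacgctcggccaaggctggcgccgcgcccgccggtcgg
A match describes the letters of this window and says nothing of whether the site was bound in either group.

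Astrocyte genes made up the next comparison. Of 34 measured astrocyte markers, 21 were called higher in BMP4 (61.8%, against 19.4% of all genes) and 2 lower, with a median of 1.18. With the row order as a block and among the arrays of the BMP4 order alike, 12 were higher and 2 lower. Summed on the linear scale over the 37 markers on the array, the signal was 178000 to 222000 in BMP4 and 80500 to 129000 in LIF_NOG. In bulk RNA, more cells of a type and more RNA per cell cannot be told apart.

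Gfap read 13.06, 13.56, 14.30 and 14.58 in BMP4. In LIF_NOG it read 11.79, 8.76, 11.01 and 12.33, and in Neurosphere 4.55 to 5.27. It was thus far above the starting level under both treatments, higher in BMP4 on every array, and the change of 2.90 ± 0.68 was called (limma, adjusted p = 0.00737). Without LIF_NOG 2, the lowest array, the change was 2.17, and against LIF_NOG 4 alone it was 1.55 (adjusted p = 0.0834). The sort before differentiation had used this gene's promoter.

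The water channel Aqp4 read 14.81, 14.98, 14.94 and 15.09 in BMP4, against 12.93, 12.29, 11.78 and 12.70 in LIF_NOG, a change of 2.53 ± 0.23 (limma, adjusted p = 2.98e-05) borne out in direction by its 4 further probes. The glutamate transporter Slc1a2 rose by 2.67 ± 0.14 by its brighter probe, while its second probe read 0.03 and was not called. Slc1a3, the other astrocytic glutamate transporter, was not called (-0.16 ± 0.22, adjusted p = 0.611). The zinc transporter Slc39a12 rose by 4.94 ± 0.32, the gap junction genes Gjb6 and Gja1 by 2.33 ± 0.23 and 1.39 ± 0.17, and the matricellular Sparcl1 by 4.48 ± 0.24. The calcium-binding S100b read 6.15, 6.11, 6.31 and 7.55 in BMP4 and was not well above background on any LIF_NOG array, a difference of at least 3.19-fold (limma, adjusted p = 0.000371).

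The aldolase Aldoc rose by 1.72 ± 0.31, glutamine synthetase, Glul, by 1.27 ± 0.28 and the lipoprotein Apoe by 1.30 ± 0.32. For Apoe, LIF_NOG 4 read 13.91 beside 14.29 to 14.46 in BMP4 and 12.19 to 13.44 on the other LIF_NOG arrays, and the change against it was 0.46 (adjusted p = 0.132). Against LIF_NOG 4, Aldoc changed by 1.32 (adjusted p = 0.0632), and the call of Glul was lost with the row order as a block (adjusted p = 0.0675). The lipoprotein Clu was not called (0.71 ± 0.33, adjusted p = 0.122), and Aldh1l1 is not analysed here. The 2 lower markers were the phagocytic bridging protein gene Mfge8, at 8.73 to 9.26 in BMP4 and 10.48 to 12.25 in LIF_NOG (-2.57 ± 0.35, limma, adjusted p = 0.000341), and the transcription factor Nfib (-0.93 ± 0.13), whose relative Nfix was called higher by 1.02 ± 0.29. That call was lost with the row order as a block (0.57, adjusted p = 0.412), and 1 of its 2 other probes was not called (0.34).

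**Figure D2:**
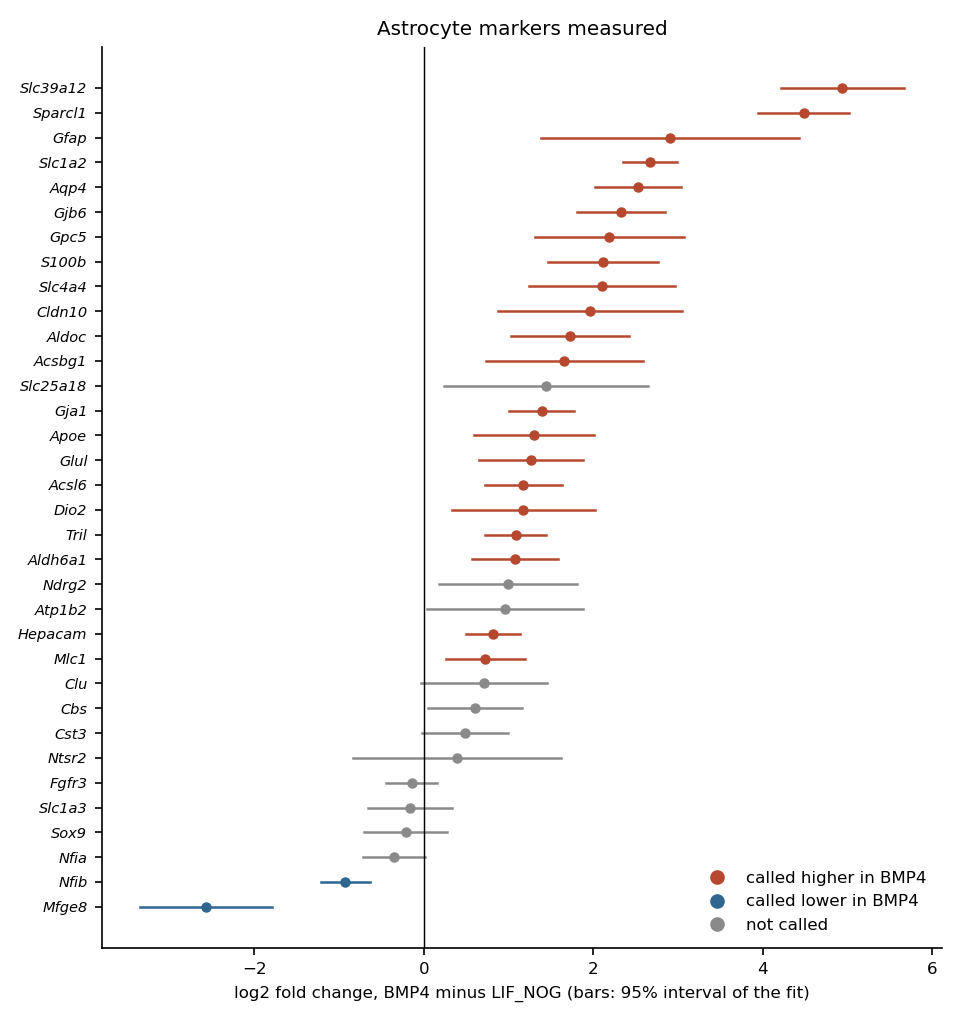
Log2 fold change (x axis, BMP4 minus LIF_NOG) of the 34 astrocyte markers measured, ordered by size, with the 95% interval of the limma fit as a bar and the call as colour. Slc39a12 and Sparcl1 stand above 4, and Nfib and Mfge8 lie below 0.

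Genes linked to reactive astrocytes moved both ways, with more of them lower in the main fit. Of 32 measured, 8 were called higher and 15 lower, with a median of -0.24, and with the row order as a block 6 and 5. Among the higher ones, the sphingosine kinase Sphk1 rose by 4.91 ± 0.44 by 1 probe and not by its other (0.03), the small heat shock gene Hspb1 by 3.90 ± 0.37, the hyaluronan receptor Cd44 by 1.71 ± 0.24 and the filament protein Synm by 2.91 ± 0.27. Lcn2 was not called (0.41 ± 0.87, adjusted p = 0.756): in LIF_NOG it was detected on LIF_NOG 2 alone, at 8.31, and without that array it was called higher (adjusted p = 0.0436, over all alternatives 0.0436 to 0.994). Serpina3n was not called either (0.79 ± 0.43). Nes, nestin of neural progenitors, read 6.72, 6.17, 6.19 and 7.26 in BMP4, against 9.31, 10.22, 9.43 and 9.55 in LIF_NOG (-3.04 ± 0.28, limma, adjusted p = 3.2e-05). The Neurosphere arrays read 9.08 to 9.62. Vim was not called (-0.33 ± 0.14, adjusted p = 0.0875).

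**Figure D3:**
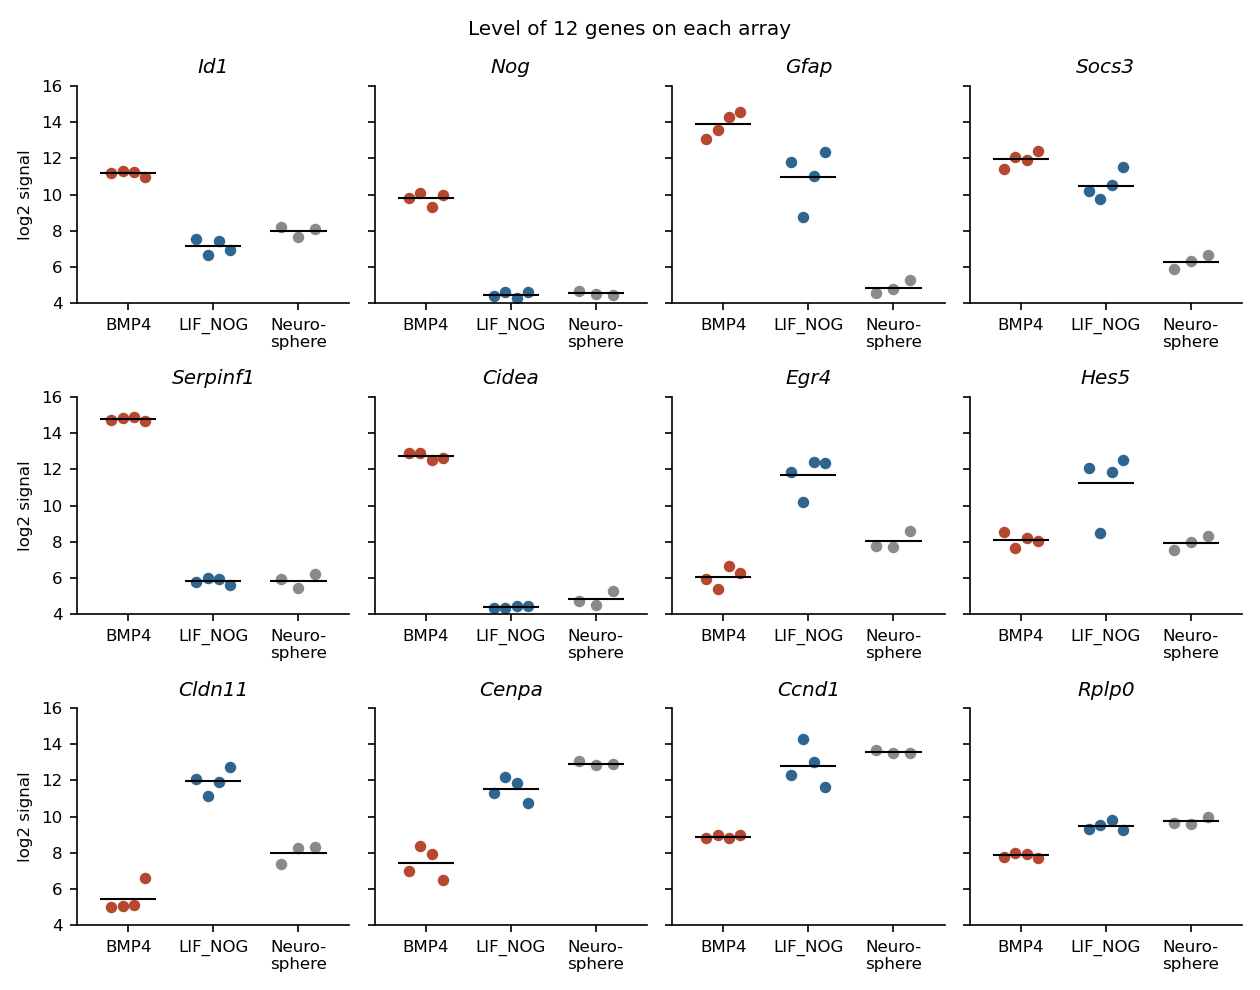
Log2 signal (y axis) of 12 genes on each BMP4, LIF_NOG and Neurosphere array (points), with group means as lines; values near 4.5 are at background. Nog and Cidea are near background in LIF_NOG and Neurosphere, Serpinf1 is low in both (5.45 to 6.19), Hes5 is near the BMP4 level on LIF_NOG 2 alone among the LIF_NOG arrays, and Ccnd1 and Cenpa are low in BMP4 alone.

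Of 20 measured neural stem and progenitor genes, 4 were called higher (20.0%, against 19.4% of all genes) and 7 lower (35.0%, against 20.7%). With the row order as a block the counts were 4 and 4. The EGF receptor gene Egfr, whose ligand supports neurosphere growth, read 9.45, 9.20, 9.11 and 9.01 in BMP4, against 11.30, 11.05, 11.52 and 11.20 in LIF_NOG and 11.15 to 11.40 in Neurosphere. Its fall of 2.07 ± 0.15 (limma, adjusted p = 7.48e-06) separated BMP4 from both. The transcription factors Dlx2 and Pax6 were higher, by 2.36 ± 0.29 and 1.68 ± 0.21, though a second probe of Dlx2 was not called (0.39). The Notch target Hes5, an effector that holds progenitors undifferentiated, read 7.53 to 8.29 in Neurosphere. It read 8.53, 7.63, 8.19 and 8.02 in BMP4, against 12.06, 8.49, 11.86 and 12.49 in LIF_NOG. LIF_NOG 2 thus reached the BMP4 range, and the change was -3.13 ± 0.74 with that array (limma, adjusted p = 0.00791) and -4.05 without it. The Notch feedback gene Nrarp (-3.49 ± 0.15) and the ligand Dll1 (-1.98 ± 0.41) were lower with it. Of 22 measured Notch genes, 7 were higher (31.8%, against 19.4% of all genes) and 6 lower (27.3%, against 20.7%). With the row order as a block 3 were higher and 5 lower.

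The Egr genes, immediate early transcription factors induced through the MAPK pathway, were lower in BMP4 than in LIF_NOG. Egr4 read 5.93, 5.40, 6.63 and 6.29 in BMP4, against 11.86, 10.18, 12.42 and 12.35 in LIF_NOG, a fall of 5.64 ± 0.47 (limma, adjusted p = 1.81e-05). Neurosphere lay between the groups, at 7.70 to 8.59. Egr3 fell by 4.48 ± 0.28, Egr2 by 3.04 ± 0.50 and Egr1 by 1.04 ± 0.26. Egr1 was bright in BMP4 too, at 12.39 to 13.28, and LIF_NOG 2 lay within that range at 13.21. Its Neurosphere arrays read 12.44 to 12.80. The ETS factor Etv1, a MAPK target, fell by 2.09 ± 0.24. In all, 0 of 22 measured EGF receptor and MAPK response genes were called higher by limma (2 at an unadjusted p under 0.05) and 8 lower (36.4%, against 20.7% of all genes), with a median of -0.23. Of 25 measured immediate early genes 4 were higher (16%, against 19.4% of all genes) and 8 lower (32%, against 20.7%). The share of higher ones was thus no larger than among all genes. Single immediate early genes differed from the Egr genes: Fos was not called (-0.14 ± 0.22), and Ccn2 and Ccn1, matricellular genes of the CCN family, rose by 5.24 ± 0.47 and 1.51 ± 0.25.

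In the fit without the row order, mitosis and DNA replication genes were mostly lower in BMP4. Of 38 measured mitosis genes, 35 (92.1%) were called lower in BMP4, against 20.7% of all genes, and 0 higher by limma (0 at an unadjusted p under 0.05), with a median of -2.85. The centromeric histone gene Cenpa read 7.00, 8.36, 7.94 and 6.46 in BMP4, against 11.28, 12.17, 11.87 and 10.72 in LIF_NOG (-4.07 ± 0.43, limma, adjusted p = 8.72e-05). Neurosphere read 12.83 to 13.06, above both. The chromosomal passenger gene Cdca8 fell by 4.05 ± 0.56, Cdca3, which helps to degrade the mitotic inhibitor Wee1, by 3.94 ± 0.52, and the polo kinase Plk1 by 3.88 ± 0.62. Of 37 DNA replication genes, 31 were lower and 1 higher, with a median of -1.59, among them the helicase subunit Mcm5 (-3.16 ± 0.52), the ribonucleotide reductase subunit Rrm2 (-3.06 ± 0.51) and the methylation reader Uhrf1 (-3.11 ± 0.47).

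The size of this difference varied between arrays of a group. Within LIF_NOG, 36 of the 38 mitosis genes and 37 of the 37 replication genes were highest on LIF_NOG 2. Relative to each gene's mean over the 8 arrays, the median mitosis gene stood at -1.80, -0.69, -1.14 and -1.62 log2 units in BMP4, and at 0.85, 2.35, 2.02 and 0.37 in LIF_NOG. Without LIF_NOG 2, 35 and 31 genes were called lower. LIF_NOG 4 had the lowest levels of its group. With the row order as a block 12 of the 38 mitosis genes and 2 of the 37 replication genes were called lower, beside 8.51% of all genes. The share of replication genes was then below that of all genes, but a lost call does not show that the difference was absent. LIF_NOG 4, the LIF_NOG array in the row order of BMP4, read above every BMP4 array for 31 of the 37 replication genes. It did so for 34 of the 38 mitosis genes. On the scale of each gene's mean, the median replication gene stood at 0.02 on LIF_NOG 4 and at -0.92 to -0.49 in BMP4. This compares 1 LIF_NOG array and carries no test. The calls of Plk1, Mcm5, Rrm2 and Uhrf1 were among those lost with that block (adjusted p between 0.0502 and 0.085). Of 9 measured G1 cyclin and kinase genes 1 was higher, 1 lower and 7 not called: Ccnd1 stood at 8.80 to 8.98 in BMP4, against 11.61 to 14.31 in LIF_NOG, while Ccnd2 rose by 1.45 ± 0.41. The Cdk inhibitor Cdkn1a was higher by 1.00 ± 0.29 (limma, adjusted p = 0.021, over alternatives up to 0.0955) and Cdkn1c lower by 1.86 ± 0.57 (up to 0.0739). Mki67 is not analysed here.

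**Figure D4:**
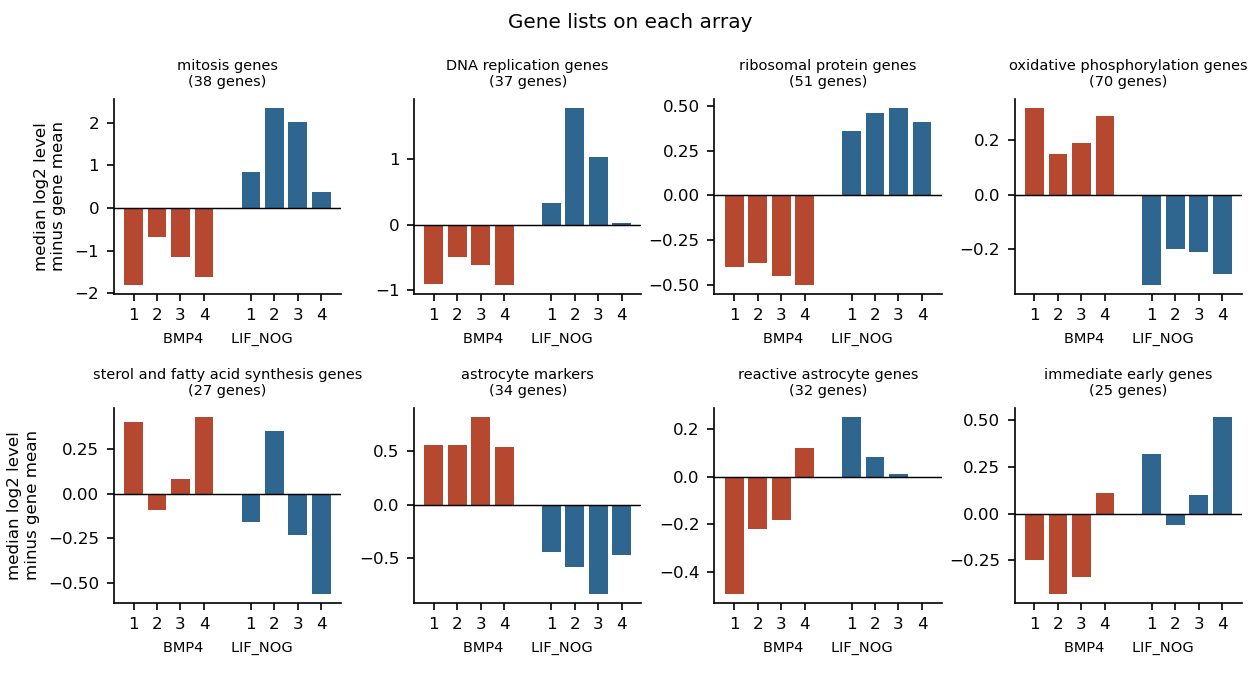
Median over the members of 8 gene lists of the log2 level minus the gene's mean over the 8 arrays (y axis), on each BMP4 and LIF_NOG array (x axis, replicate number). Mitosis and replication genes are below 0 on every BMP4 array and highest on LIF_NOG 2, ribosomal protein and oxidative phosphorylation genes differ evenly between the groups, and the values of reactive astrocyte genes overlap between the groups.

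Promoters of the mitosis genes are shown because 2 short sequences recur in them that are known from promoters switched on late in the cell cycle, TTTGAA and CCAAT. On both strands of the 300-base RefSeq windows, TTTGAA was present for 18 of the 28 lower mitosis genes with an entry (64.3%), against 14.4% of the tested genes, and CCAAT for 16 (57.1%) against 43.2%. Over all measured mitosis genes with an entry, called or not, each was present for 19 of 31 (61.3%). The shares thus describe the list and not the genes that fell. Each stretch below runs from -110 to -1, 5′ to 3′ on the strand of the gene, with both sequences in capitals. TTCAAA and ATTGG are their reverse complements. Of the genes with 1 promoter entry and both sequences in that stretch, 4 are given as examples, which may not be all of them. They are Cdk1, the kinase that drives mitosis (chr10:69352913-69353022, minus), Top2a, the topoisomerase that untangles chromosomes (chr11:99024190-99024299, minus), the kinesin Kif22 (chr7:127042421-127042530, minus) and Cdc20, an activator of the anaphase-promoting complex (chr4:118437344-118437453, minus).
Cdk1: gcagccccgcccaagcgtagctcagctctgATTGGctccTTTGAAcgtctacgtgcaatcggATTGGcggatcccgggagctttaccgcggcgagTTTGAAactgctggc
Top2a: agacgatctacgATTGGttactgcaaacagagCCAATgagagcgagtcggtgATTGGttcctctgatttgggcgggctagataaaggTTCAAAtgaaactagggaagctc
Kif22: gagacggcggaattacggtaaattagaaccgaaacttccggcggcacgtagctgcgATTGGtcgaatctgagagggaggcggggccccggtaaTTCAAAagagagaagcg
Cdc20: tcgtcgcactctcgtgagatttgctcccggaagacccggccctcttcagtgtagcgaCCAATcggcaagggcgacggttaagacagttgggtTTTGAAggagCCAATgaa
Their levels fell in BMP4, by 3.20 ± 0.53 for Cdk1, 2.96 ± 0.45 for Kif22 and 2.83 ± 0.42 for Cdc20. Top2a was detected on 2 of 4 BMP4 arrays and on all LIF_NOG arrays, and was at least 8.11-fold lower in BMP4. With the row order as a block the calls of Cdk1, Top2a and Kif22 were lost (adjusted p between 0.0512 and 0.082). The matches are a description of the windows and not evidence of binding.

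Genes of myelinating oligodendrocytes were mostly lower in BMP4. Of 15 measured myelinating oligodendrocyte genes, 9 were called lower and 1 higher, with a median of -1.31, and 9 were lower and 0 higher with the row order as a block. Cldn11, the tight junction protein of myelin, read 5.01, 5.02, 5.12 and 6.59 in BMP4. In LIF_NOG it read 12.07, 11.15, 11.89 and 12.71, above the Neurosphere range of 7.36 to 8.29. Its fall of 6.52 ± 0.41 (limma, adjusted p = 3.25e-06) was the largest log2 fall measured, though genes given as lower bounds cannot be ranked against it. Bcas1, a gene of newly forming oligodendrocytes, was not well above background on any BMP4 array and read 9.97 to 11.72 in LIF_NOG, so that it was at least 63.9-fold lower. Sox10, the transcription factor of the lineage, was below background on every BMP4 array too and at least 8.16-fold lower, and the myelin gene Opalin at least 5.57-fold.

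Myelin basic protein, Mbp, fell by 2.76 ± 0.40 by its brighter probe, and its other probe was not called (-0.14). Of 13 oligodendrocyte progenitor genes 3 were higher (23.1%, against 19.4% of all genes) and 4 lower (30.8%, against 20.7%), and with the row order as a block 1 and 4. The summed linear signal of the 18 on the array overlapped, at 30300 to 32800 in BMP4 and 30800 to 36800 in LIF_NOG. The PDGF receptor Pdgfra, which marks these progenitors, read 5.67, 5.49, 5.50 and 5.51 in BMP4, against 8.94, 8.49, 8.25 and 9.34 in LIF_NOG (-3.21 ± 0.22, limma, adjusted p = 5.17e-06), though a second probe did not differ by the test (0.02). Olig2 was not called (-0.63 ± 0.25, adjusted p = 0.0684). Over the 24 myelinating genes on the array the summed linear signal was 1500 to 1820 in BMP4 and 5110 to 9720 in LIF_NOG, and 5 of them, Gjc3, Ermn, Bmp4, Tmem88b and Myrf, were detected on none of the 8 arrays. The zinc finger gene Myt1, which acts in oligodendrocyte progenitors and neurons, fell by 4.98 ± 0.52.

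Of 26 measured neuronal genes 5 were higher (19.2%, against 19.4% of all genes) and 8 lower (30.8%, against 20.7%), and with the row order as a block 3 and 8. Dcx, of migrating neuroblasts, read 4.41 to 6.08 in BMP4 and 7.31 to 9.16 in LIF_NOG (8.03-fold lower, limma, adjusted p = 0.000395), and was detected on 3 of the 4 BMP4 arrays. Sox11 fell by 2.82 ± 0.17 and the growth cone gene Gap43 by 2.33 ± 0.37. Snap25 was higher by 1.14 ± 0.28 by 1 of its 2 probes. The calls of Gap43 and Snap25 were lost with the row order as a block (adjusted p = 0.0518 and 0.2). Ncam1 was higher by 1.78 ± 0.16 by its brightest probe and lower by 0.49 by another (adjusted p = 0.0382), so its direction is not settled. Of markers of other cell types, 16 of 17 microglial genes on the array, Cx3cr1, Aif1 and Tyrobp among them, were detected on none of the 8 arrays. The exception was lysozyme, Lyz2, at 8.09 to 8.80 in BMP4 and below background in LIF_NOG, at least 12.9-fold higher. Of 16 endothelial genes on the array 10 were detected on at least 1 of the 8 arrays, Cdh5 not among them, of 24 ependymal and ciliary genes 15, and of 23 pericyte, smooth muscle and fibroblast genes 14. Of 13 measured ependymal genes 3 were higher (23.1%, against 19.4% of all genes) and 4 lower (30.8%, against 20.7%), and with the row order as a block 2 and 1. Of 9 measured genes of the pericyte and fibroblast list 4 were higher (44.4%: Thy1, Rgs5, Tagln and Ogn) and 2 lower (22.2%: Pdgfra and Fbln1), and with the row order as a block 1 and 1. Thy1 was at 7.62, 9.66, 10.17 and 11.84 in BMP4 and 5.09 to 6.45 in LIF_NOG (3.84 ± 0.73), with an adjusted p of 0.107 against LIF_NOG 4 alone.

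Of 70 measured oxidative phosphorylation genes, 46 (65.7%) were called higher in BMP4, against 19.4% of all genes, and 1 lower, with a median of 0.50. With the row order as a block 13 were higher and 0 lower. The leading ones were isoforms known from muscle, fat or testis: Cox8b (detected in BMP4 alone, at least 3.10-fold higher), Cox6b2 (1.79 ± 0.15) and Cox7a1 (1.38 ± 0.26), whose call was lost with the row order as a block (adjusted p = 0.0875). A second probe of Cox6b2 was not called (0.22). Ppargc1a, a coactivator of mitochondrial genes, read 10.26, 9.72, 9.83 and 9.49 in BMP4 and 6.95 to 7.78 in LIF_NOG (2.47 ± 0.22, limma, adjusted p = 2.72e-05). Of 32 glycolysis and hypoxia genes 16 were higher and 4 lower, with a median of 0.47 (11 and 2 with the row order as a block): the phosphofructokinase Pfkm rose by 2.58 ± 0.15 and the glucose transporter Slc2a1 by 2.56 ± 0.33, while hexokinase 2, Hk2, was called lower by 1.59 ± 0.37. That call was lost with the row order as a block (-0.60, adjusted p = 0.385).

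Of 15 lipoprotein and cholesterol efflux genes 9 were higher and 1 lower (3 and 0 with the row order as a block), led by the cholesterol esterifying enzyme Lcat (2.94 ± 0.18) and the lipase Lpl (1.79 ± 0.46). Of 27 sterol and fatty acid synthesis genes 8 were higher (29.6%, against 19.4% of all genes) and 3 lower (11.1%, against 20.7%), and with the row order as a block 8 and 0. The desaturase Scd1 led them, at 13.60 to 13.83 in BMP4 and 10.41 to 12.13 in LIF_NOG (2.39 ± 0.30). LIF_NOG 2 had the highest value of its group for 22 of the 27, and without it 11 were higher and 1 lower.

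Of 51 measured ribosomal protein genes, 41 (80.4%) were called lower, against 20.7% of all genes, and 1 higher, with a median of -0.85, and with the row order as a block 29 were lower. Rplp0 read 7.76, 7.99, 7.94 and 7.71 in BMP4, against 9.31, 9.51, 9.80 and 9.25 in LIF_NOG (-1.62 ± 0.15, limma, adjusted p = 3.72e-05). Rpl13a fell by 2.24 ± 0.16 by both of its probes. The gene that rose was the muscle paralog Rpl3l, detected in BMP4 alone. Under median scaling in place of quantile normalization 40 were lower and 1 higher. Of 90 chromatin regulators 36 were lower (40.0%, against 20.7% of all genes) and 8 higher (8.9%, against 19.4%). With the row order as a block 12 were lower and 5 higher. The methyltransferase Ezh2 was among the lower ones (-1.85 ± 0.21).

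Of 60 heat shock and chaperone genes 10 were higher (16.7%, against 19.4% of all genes) and 18 lower (30.0%, against 20.7%), and with the row order as a block 5 and 5. The small heat shock gene Hspb8 read 14.61 to 14.69 in BMP4 and 10.72 to 11.67 in LIF_NOG (3.46 ± 0.23, limma, adjusted p = 5.1e-06), and its partner Bag3 rose by 1.84 ± 0.23. Of 32 glutathione and metallothionein genes 15 were higher and 3 lower (10 and 0 with the row order as a block), with Hmox1 at 2.66 ± 0.17, Mt3 at 2.56 ± 0.27 and Mt2 at 1.90 ± 0.38, a call that the block ended (adjusted p = 0.156). Of 43 lysosomal genes 16 were higher (37.2%, against 19.4% of all genes) and 4 lower (9.3%, against 20.7%). The cathepsin Ctsh led the higher ones (3.37 ± 0.27). With the row order as a block 2 of the 43 were higher, beside 9.64% of all genes, and 1 was lower, beside 8.51%.

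Of 185 measured solute carriers 50 were higher (27.0%, against 19.4% of all genes) and 24 lower (13.0%, against 20.7%), and with the row order as a block 29 and 14. Both chains of a large neutral amino acid transporter rose: Slc7a5 read 13.59, 13.85, 13.76 and 14.03 in BMP4, against 9.99, 10.28, 9.47 and 9.76 in LIF_NOG (3.93 ± 0.18, limma, adjusted p = 5.6e-07), and its partner Slc3a2 rose by 2.74 ± 0.17. Of 46 growth factors and receptors 18 were higher (39.1%, against 19.4% of all genes) and 7 lower (15.2%, against 20.7%), and with the row order as a block 12 and 5. Fgf1 rose by 5.04 ± 0.41, and the IGF-binding proteins Igfbp2 and Igfbp3 by 2.78 ± 0.59 and 2.50 ± 0.55. Of 40 matrix protease and inhibitor genes 12 were higher and 10 lower (7 and 8 with the row order as a block): Timp4 (4.51 ± 0.44) and Adam23 (4.23 ± 0.16) rose, and Adamts4, which cleaves aggrecan, fell by 4.02 ± 0.35. The proteoglycan Bgn was detected in BMP4 alone and at least 13.6-fold higher. Of 45 axon guidance genes 13 were higher (28.9%, against 19.4% of all genes) and 10 lower (22.2%, against 20.7%), and with the row order as a block 12 and 6, with Efna5 at 2.18 ± 0.30. The homeodomain protein gene Hopx read 12.01, 11.69, 12.10 and 13.26 in BMP4 and 6.71 to 8.24 in LIF_NOG (4.73 ± 0.38).

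**Figure D5:**
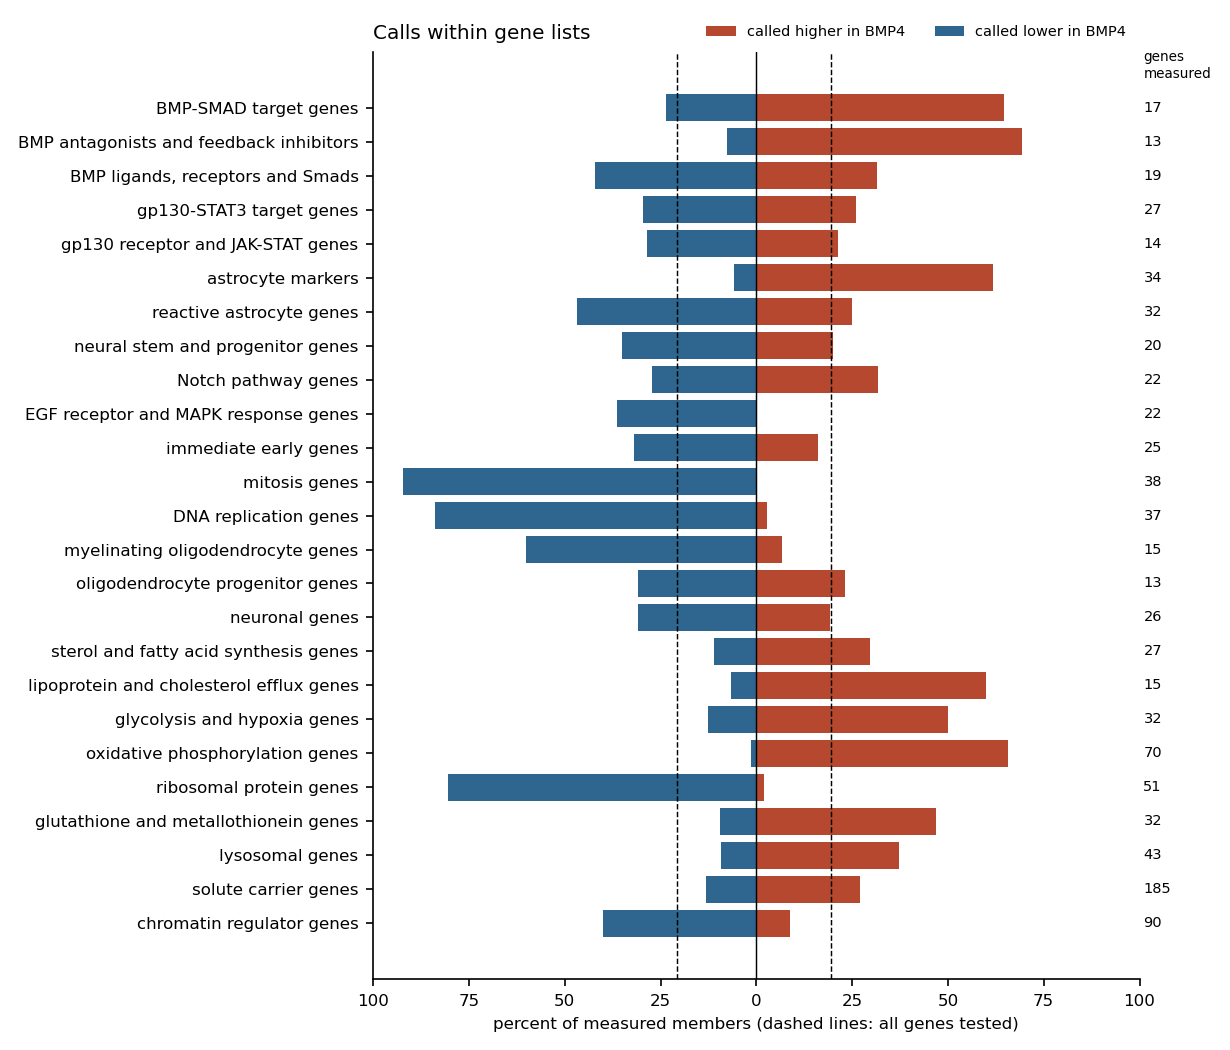
Percent of the measured members of 25 gene lists called higher (right) or lower (left) in BMP4, with the number measured at the right edge and dashed lines at the 19.4% and 20.7% of all genes. Mitosis, DNA replication and ribosomal protein genes reach furthest to the left, and BMP inhibitors, oxidative phosphorylation genes, BMP targets and astrocyte markers furthest to the right.

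The largest single changes lay mostly outside these lists. Serpinf1, the secreted neurotrophic serpin PEDF, read 14.74, 14.85, 14.89 and 14.69 in BMP4, against 5.75, 5.97, 5.92 and 5.62 in LIF_NOG and 5.45 to 6.19 in Neurosphere. That change of 8.98 ± 0.12 (limma, adjusted p = 1.39e-10) was the largest log2 difference measured in either direction. Genes given as lower bounds cannot be ranked against it. A second, dim probe of Serpinf1 did not show the change (-0.02). Cidea, a lipid droplet protein of brown fat, read 12.90, 12.89, 12.54 and 12.62 in BMP4 and was not well above background on any LIF_NOG array, at least 235-fold higher (adjusted p = 1.74e-10). Papss2, which makes the sulfate donor of proteoglycans, was at least 82.1-fold higher, the cytoskeletal regulator gene Rcsd1 at least 38.1-fold and the inositol phosphatase Inpp5j at least 30.0-fold, all undetected in LIF_NOG.

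The small GTPase Diras2 rose by 6.66 ± 0.20, the G protein regulator Rgs9 by 5.85 ± 0.31, the mitochondrial Chchd10 by 5.85 ± 0.38, the potassium channel Kcnk13 by 5.88 ± 0.25 and Tmem158 by 5.49 ± 0.38. Second probes gave smaller changes for Rgs9 (3.95), Kcnk13 (1.35) and Tmem158 (3.59), all called in the same direction. Ccdc3 rose by 6.53 ± 0.73, at 13.66 to 14.44 in BMP4, 10.32 on LIF_NOG 2 and 6.44 to 7.07 on the other LIF_NOG arrays. Stum (at least 61.4-fold higher) and the potassium channel Kcnc4 (at least 42.9-fold) were detected on 1 LIF_NOG array each and the carboxypeptidase Cpm (at least 37.3-fold) on 2. Second probes of Kcnc4 and Cpm gave log2 changes of 0.98 and 3.53, both called. Kcnc4 was detected in Neurosphere at 9.22 to 9.60, between BMP4 and LIF_NOG, as were Chchd10, Tmem158 and Diras2 at their own levels.

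By measured log2 signal, the largest falls after Cldn11 and Bcas1 were those of the matrix protein Fbln2 (-5.65 ± 0.40) and Egr4, then Cacng5, a subunit that accompanies AMPA receptors, detected on 1 BMP4 array and at least 29.2-fold lower. The actin-binding Tagln2, also detected on 1 BMP4 array, was at least 17.4-fold lower. The basement membrane collagen Col18a1 fell by 4.33 ± 0.30, the Bcl2 family gene Bok by 4.28 ± 0.19 and Trp53i11 by 4.00 ± 0.36. A second probe of Bok gave a smaller change of -0.88, also called. Fbln2, Bok and Trp53i11 read at 11.31 to 11.57, 11.00 to 11.49 and 9.63 to 10.41 in Neurosphere, near their LIF_NOG levels.

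Set beside the Neurosphere means, the genes that differed at least 2-fold were mostly ones in which BMP4 stood away from that level. Of the 977 higher genes, BMP4 alone stood at least 2-fold above Neurosphere for 682, LIF_NOG alone stood at least 2-fold below it for 32, and both stood above it for 145. Of the 817 lower genes, BMP4 alone stood at least 2-fold below it for 370, LIF_NOG alone stood above it for 164, and both stood below it for 146. These counts describe means of 4, 4 and 3 arrays and carry no test. EGF dose, virus and time in culture differ between Neurosphere and both treated groups. The Neurosphere arrays used stand in the row order of LIF_NOG 1 to 3, and no BMP4 array does. In the distance of BMP4 from Neurosphere, row order and treatment therefore cannot be told apart.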

How the data were processed

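Groups of the 12 Illumina arrays follow the titles. The raw table deposited by the authors holds 1 non-normalized signal intensity per probe and array with, per the file headers, a detection p-value beside it. The authors also deposited a table of processed intensity, on a linear scale. BeadStudio 3 and lumi 2.15.1 appear in the submitters' processing notes, with no role given. No per-sample column was left without a sample (0 columns).

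Neurosphere 1 was not used, because its raw column is not in probe order (median rank correlation with the others 0.0104). The other 11 arrays were normalized together by neqc (offset 16, log2; limma 3.58.1 under R 4.3.3), and the fit used the 8 treated arrays (lmFit and eBayes, 6 residual degrees of freedom, Benjamini-Hochberg). Probes listed more than once (11 identifiers) were left out. Of 46621 probes, 29967 carried 1 symbol, 10 several and 16644 none in the platform annotation; none of the symbols (0) changed against the GRCm38.p6 gene table. Probes with a detection p under 0.05 on at least 4 of 8 arrays were kept (19103, 14560 with 1 symbol), and the brightest represented a gene. A called gene detected on 2 or fewer arrays of its dimmer group is given as a lower bound of the fold. The bound takes that group's values set to at least the lowest signal well above background.

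The authors' table was matched to the raw rows through the ranks of the 5 arrays of the BMP4 row order (46629 of 46630 rows). Tables and figures were made in Python 3.11.15 with pandas 2.3.3, numpy 2.4.6, matplotlib 3.10.9 and scipy 1.17.1. The script was tested on simulated data. The number of arrays limits the precision.

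The comparison, its gene lists and tests were chosen with earlier results of these data known. Named genes are the 15 largest called changes per direction (no overlap, and the higher group detected throughout), up to 4 called members per list and direction, and a fixed set of 30 genes. Bmper, Grem1, Msx1, Msx2, Skil, Crim1, Smad1, Gjb6, Serpina3n, Egr1, Fos, Ppargc1a, Slc3a2 and the 4 promoter examples were added after their values were seen. Alternatives were other scalings, filters, probe summaries, weights, the Neurosphere arrays in the fit, blocks, the authors' table and leaving out each array.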

Additional observations from a re-analysis of the deposited data

Results flagged for a closer look

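In several groups of 4 arrays, 1 array's log2 level lay far from the other 3. Chance alone picks out about 1 in 20 groups of this size, and 24 of 321 groups tested were picked out, 11 of them on LIF_NOG 2 and 7 on BMP4 4.

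On LIF_NOG 2, Ccdc3 read 10.32 (6.44 to 7.07 on the other LIF_NOG arrays), Sphk1 7.59 (5.77 to 5.84), Lcn2 8.31 (at most 4.51), Il6ra 7.93 (5.57 to 5.97), Cd44 10.88 (9.77 to 9.87), Bag3 11.19 (10.27 to 10.39) and Kcnc4 5.83 (4.60 to 4.70), all above the rest. Hes5 at 8.49 (11.86 to 12.49), Egr2 at 8.03 (10.02 to 10.15), Nbl1 at 6.49 (7.03 to 7.14) and Kcnk13 at 5.17 (6.19 to 6.25) lay below the rest on the same array.

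On BMP4 4, Timp1 read 9.01 (7.29 to 7.32 on the other BMP4 arrays), Cldn11 6.59 (5.01 to 5.12), S100b 7.55 (6.11 to 6.31), Atoh8 7.62 (6.57 to 6.73) and Nbl1 9.63 (8.50 to 8.56), above the rest. Sphk1 at 10.21 (11.38 to 11.57) and Sox11 at 9.00 (9.41 to 9.45) lay below them.

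The remaining ones were Igfbp2 at 12.72 and Msx1 at 4.93 on BMP4 3, Pdgfra at 5.67 and Fzd5 at 9.92 on BMP4 1, Adam23 at 7.57 on LIF_NOG 1 and Msx2 at 4.68 on LIF_NOG 3.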

How the results depend on the processing

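Of 162 called genes named in the text, 127 stayed called under every alternative in which they were measured. The other 35 lost their call under at least 1, and none turned direction (0). With detection required on all arrays, 139 of the 169 genes named were measured, so the rest were not tried there. The row order had the widest effect: as a block it left 1001 genes higher and 884 lower and ended 33 of those calls, and within the BMP4 order 1109 and 1188 genes were called and 19 calls ended; with LIF_NOG 4 as the only LIF_NOG array there, order and treatment are told apart by that array alone. At least 2-fold counts fell to 477 higher and 362 lower in the authors' processed table, and to 515 lower without background correction; the cause was not tested. Leaving out 1 array at a time gave 1709 to 2150 higher and 1687 to 2435 lower. The difference in the share of probes detected (-0.03 percentage points) ranged from -0.636 to 0.419 and changed sign without BMP4 1 (0.293), BMP4 2 (0.0232), BMP4 3 (0.199) or LIF_NOG 4 (0.419). Replicate numbers are shared by the groups, but same-numbered arrays deviated together with correlations of 0.124, 0.203, 0.066 and 0.192, so pairing is not settled; with a replicate block 2047 genes were higher and 2177 lower, and every array correlated best with its own number. Of 87 other probes of 59 named genes, 66 were called in the same direction, 19 were not called and 2 were called in the opposite one. Some called in the same direction gave smaller changes, such as 3.46 for Papss2, 3.0 for Fgf1 and -1.24 for Cenpa. Dim probes near background give lower bounds only.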

Other observations

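Of 28 measured interferon response and antigen presentation genes 9 were called higher in BMP4 (32.1%, against 19.4% of all genes) and 3 lower (10.7%, against 20.7%), with a median of 0.25. With the row order as a block 4 were higher and 1 lower. The interferon-induced Ifi27 rose by 2.04 ± 0.19 and Ifitm2 by 1.30 ± 0.21. The guanylate-binding protein gene Gbp3 read 5.30, 5.41, 6.08 and 6.16 in BMP4, against 9.06, 9.33, 9.35 and 9.03 in LIF_NOG, with no overlap (-3.46 ± 0.21, limma, adjusted p = 3.1e-06). Of 40 Wnt pathway genes 10 were higher (25%, against 19.4% of all genes) and 6 lower (15%, against 20.7%), and with the row order as a block 5 and 3. The ligand Wnt9a (2.92 ± 0.45) and the receptor Fzd5 (2.15 ± 0.22) rose, and the ligand Wnt7b (-1.77 ± 0.31) and the secreted inhibitor Sfrp1 (-1.73 ± 0.28) fell, the last with its call lost under that block (adjusted p = 0.0678). Further probes of Fzd5 gave smaller changes of 0.49 and 0.40, both called.

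The list of neural crest and muscle genes holds Cidea and Sox10. Of its 13 measured genes 8 were higher (61.5%, against 19.4% of all genes) and 3 lower (23.1%, against 20.7%). With the row order as a block 5 were higher and 3 lower. The atrial myosin light chain gene Myl4 rose by 2.15 ± 0.20 and the melanocyte factor Mitf by 1.30 ± 0.19. Cardiac actin, Actc1, read 5.84 to 6.06 in BMP4 and 8.74, 6.08, 9.04 and 9.87 in LIF_NOG (-2.49 ± 0.65), LIF_NOG 2 being the low one. Among 15 secreted and adhesion genes that act on synapses, 8 were higher (53.3%, against 19.4% of all genes) and 4 lower (26.7%, against 20.7%). The lower ones included the neuroligin Nlgn3 (-1.95 ± 0.16) and pleiotrophin, Ptn (-1.36 ± 0.20). Of the 4543 probes kept that carry no single symbol, 638 were called higher and 805 lower.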
